A study of Homo sapiens with 6 samples.

Results

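The genes of the MYC, MAX and MXD transcription factor network were examined in SK-N-AS cells after knockdown of Prp19. SK-N-AS is an established human neuroblastoma cell line that carries no amplification of MYCN, and Prp19, the product of PRPF19, takes part in pre-mRNA splicing. The 10 genes were MYC, MYCN, MAX, MNT, MXD1, MXD3, MXD4, MXI1, MGA and MLX, taken by name for their place in the network, out of 58735 genes listed per library. The cells were transfected with siRNA against Prp19 (siPrp19) or negative control siRNA (NC), with 3 libraries in each group. Both groups shared the cell line, the medium and the transfection, which lasted 72 h per the labels and a shorter time per the methods. The study chose a single siRNA from those designed against Prp19, so an effect of the siRNA apart from loss of Prp19 cannot be told apart here. Expression was given as FPKM, sequenced fragments per kilobase of exon relative to a scaled library size. This is a level per length that allows genes to be compared.

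Libraries are named here by the value column of each file, NCa, NCb and NCc against siPrp19a, siPrp19b and siPrp19c. Each column name was the description of exactly 1 sample, which gave its group. However, 4 of the 6 files were recorded under another sample than the one their column names, and 2 of these, NCb and siPrp19b, were recorded under a sample of the opposite group. The column names are followed below, and results are also given without these 2 libraries and with the groups as recorded. By column name, PRPF19 had an FPKM of 83.0, 83.1 and 93.0 in NCa, NCb and NCc and of 19.7, 19.1 and 18.5 in siPrp19a, siPrp19b and siPrp19c. It was thus high in every library whose column is named NC and low in every library named siPrp19, NCb and siPrp19b included. Log2 fold changes by limma are given in this report as differences in log2(FPKM + 1), a scale that understates changes of weak genes. The mean of PRPF19 fell by 77.9% in siPrp19, a log2 fold change of -2.12 ± 0.07 (SE). Its adjusted p by limma was 0.000215 over the 6 libraries, 0.0266 without NCb and siPrp19b, and 1.00 with the groups as recorded.

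Between 14887132 and 19977811 whole reads per library could be recovered from the values. The library sizes that the FPKM values imply were not these totals. The reads were 1.01, 1.01 and 1.04 times the implied size in NCa, NCb and NCc. They were 0.99, 0.96 and 0.95 times it in siPrp19a, siPrp19b and siPrp19c. The FPKM scale thus held a factor that differed between the groups, and its part in the differences below was not tested. Libraries of a group were not equally spaced. NCa and NCb differed by 1.75 times the counting noise (chi-square of the counts over its degrees of freedom) and siPrp19b and siPrp19c by 2.85 times, whereas the other 13 pairs of libraries differed by 21.5 to 56.5 times. The methods describe biological replicates, and the p-values measure only the spread between these libraries. The tests over 6 libraries count both libraries of a close pair as separate replicates. Mitochondrial genes held 8.29% of the reads in siPrp19a and 5.15 to 5.49% in the other libraries. NCc stood below NCa and NCb by a median of 0.22 on the log2 scale for 1309 genes with over 10000 bp of exon and above them by 0.17 for 4608 genes under 3000 bp. Of 8 neuroblast markers, 7 were at an FPKM of 1 or more in every library, among them HAND2 (117 to 170), and TH was at 0.31 to 0.66. All 7 tested neuroblast markers had a log2 fold change below 0 in siPrp19, with a median of -0.29, beside 7411 of all 13718 tested genes. The groups did not overlap for 5 of them and 1 passed the test. Over all tested genes, 18.1% did not overlap with siPrp19 lower and 5.37% passed as lower. All 4 mesenchymal markers were also below 0, with a median of -0.17, and none passed by limma or voom. An unadjusted p under 0.05 by limma was found for 2 of them, beside 3240 of all 13718 tested genes. Of 6 markers of other cell types, 5 were below an FPKM of 1 in every library, CD3E had no read, and PTPRC was at 16.9 to 30.7. PTPRC was itself lower in siPrp19 (log2 fold change -0.63, adjusted p = 0.0202 by limma), and the part of these marker values in the results below was not tested.

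MYC, MYCN and MYCL are transcription factors that bind DNA only as dimers with MAX, at the E-box CACGTG and its variants, and raise transcription of genes for ribosome assembly, nucleotide synthesis and the cell cycle. The MXD proteins (MXD1, MXI1, MXD3 and MXD4), MNT and MGA also pair with MAX and bind the same sites, where MXD proteins and MNT bring the SIN3 and histone deacetylase corepressor and MGA brings a Polycomb complex. MLX is a MAX-like partner of MLXIP (MondoA) and MLXIPL (ChREBP), which respond to glucose and turn on TXNIP and ARRDC4. In neuroblastoma, amplification of MYCN marks high-risk tumours, and lines without it commonly express MYC.

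MYC, MLX, MXD4 and MAX were the most abundant members in NC, and MYCN was not detected. In NC, the mean FPKM was 19.1 ± 0.821 (SD, n = 3) for MYC, 19.1 ± 0.357 for MLX, 17.8 ± 0.364 for MXD4, 17.3 ± 1.58 for MAX and 9.14 ± 0.508 for MXI1. Lower levels were found for MGA (5.71 ± 1.33), MXD3 (3.84 ± 0.613), MNT (2.52 ± 0.147) and MXD1 (2.24 ± 0.507). In this order the ranges of the 3 libraries overlapped between MYC and MLX, between MXD4 and MAX, between MGA and MXD3, and between MNT and MXD1, so these neighbours could not be ordered. In siPrp19 the order became MLX (22.0 ± 0.965), MXD4 (18.3 ± 1.76), MAX (16.5 ± 0.603), MYC (13.8 ± 0.680), MXI1 (6.49 ± 0.159) and MGA (6.33 ± 0.915), followed by MXD3 (2.92 ± 0.681), MXD1 (2.63 ± 0.0961) and MNT (2.61 ± 0.290). There the ranges overlapped between MXD4 and MAX, between MXI1 and MGA, between MXD3 and MXD1, and between MXD1 and MNT. MYC, at the head of the order with MLX in NC, lay below the ranges of MLX, MXD4 and MAX in siPrp19.

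**Figure D1:**
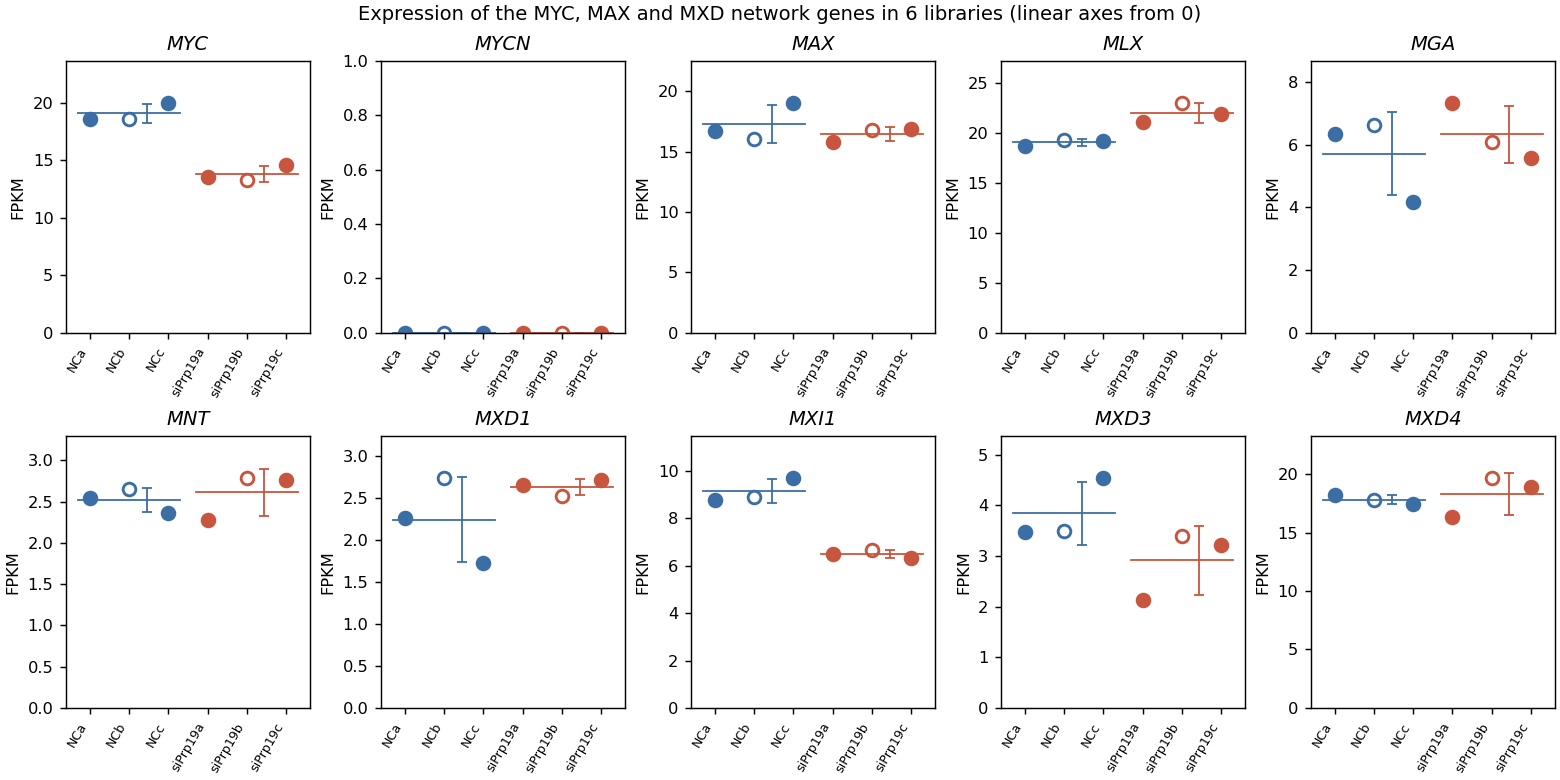
FPKM (y axes, linear from 0) of the 10 network genes in each of 6 libraries (x axes). Blue points are NC and red points siPrp19 by column name, open points are NCb and siPrp19b, whose files are recorded under the opposite group, lines are group means and bars are SDs (n = 3). MYC and MXI1 stand lower in all 3 siPrp19 libraries, MLX stands higher, and MYCN is at 0 in all 6.

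Among the 9 members that passed the filter (a mean FPKM of at least 1), MYC and MXI1 were called lower in siPrp19 over the 6 libraries. The other 7 did not pass the test. The test was limma on log2(FPKM + 1) with Benjamini-Hochberg adjustment over 13718 genes and a threshold of 0.05 on the adjusted p. It called 7.94% of all tested genes, 5.37% as lower and 2.57% as higher in siPrp19. The groups did not overlap for 4 of the 9 members, 3 lower (MYC, MXI1 and MXD3) and 1 higher (MLX), against 31.3% of all tested genes, 18.1% lower and 13.2% higher. Without NCb and siPrp19b, these 4 members and MXD1 (higher) did not overlap, against 44.0% of all tested genes, 24.8% lower and 19.2% higher. In that comparison limma called 0.0146% of all tested genes (2, both lower) and no member. There, 2 members (MYC and MXI1) were at an unadjusted p under 0.05, beside 1685 of the 13718 tested genes. With the 2 closest pairs averaged (NCa with NCb, siPrp19b with siPrp19c), limma called 2 of 13718 genes and no member. With the groups as recorded, limma called 0.0% of all tested genes, with 191 of 13718 at an unadjusted p under 0.05. Between 174 and 2798 reads lay behind each value of the 9 tested members.

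MYC (ENSG00000136997, chr8:127735434-127741434 on the plus strand of GRCh38) encodes the MYC family member used by most tissues. Its FPKM was 18.6 in NCa, 18.6 in NCb and 20.01 in NCc, from 883, 823 and 1033 reads. In siPrp19a, siPrp19b and siPrp19c it was 13.6, 13.3 and 14.6, from 644, 658 and 919 reads. Every siPrp19 library therefore lay below every NC library, and the gap between the groups was wider than the range within either. The mean fell by 27.5%, with a log2 fold change of -0.44 ± 0.07 (SE), a 95% interval of -0.60 to -0.28 and an adjusted p of 0.0141 by limma. Without NCb and siPrp19b the difference was -0.43 on the log2 scale (adjusted p = 0.262 by limma), and with the groups as recorded it was -0.13 (adjusted p = 1.00). Leaving out NCa, NCb, siPrp19b or siPrp19c also ended the call (adjusted p = 0.0648, 0.0594, 0.0764 and 0.0532 by limma). With the 2 closest pairs averaged, the log2 fold change was -0.46 (adjusted p = 0.218 by limma). No exon of another annotated gene overlapped MYC. PVT1, the long noncoding RNA gene next to MYC, had an FPKM of 2.14 to 2.68 with overlapping groups and a log2 fold change of -0.01 (adjusted p = 0.95 by limma).

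MYCN (ENSG00000134323, chr2:15940564-15947007, plus strand), whose product takes the place of MYC in many neuroblastomas, had no read in any of the 6 libraries. A count of 0 allows up to 3 reads, or an FPKM of up to 0.0549 in siPrp19c and 0.0782 in NCb, and this limit covers counting error only. MYCNOS, the gene on the opposite strand of MYCN, also had no read. MYCL, the remaining family member, lay between an FPKM of 0.11 and 0.23, under the filter, with overlapping groups. MYC therefore held nearly all of the MYC family transcripts in both groups.

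MAX (ENSG00000125952, chr14:65006174-65102695, minus strand), the shared partner of the MYC, MXD, MNT and MGA proteins, had an FPKM of 16.7, 16.1 and 19.1 in NCa, NCb and NCc. It was 15.8, 16.8 and 16.9 in siPrp19a, siPrp19b and siPrp19c. The groups overlapped, with NCc the highest library. The log2 fold change was -0.06, with a 95% interval of -0.25 to 0.13 and an adjusted p of 0.703 by limma. It was 0.01 without NCc and 0.01 after quantile normalization, so no direction can be given for MAX.

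MXI1 (ENSG00000119950, chr10:110207605-110287365, plus strand), an MXD family repressor also known as MXD2, had an FPKM of 8.77, 8.92 and 9.72 in NCa, NCb and NCc. It was 6.49, 6.65 and 6.34 in siPrp19a, siPrp19b and siPrp19c. As for MYC, all siPrp19 libraries lay below all NC libraries. The mean fell by 28.9%, with a log2 fold change of -0.44 ± 0.07 (SE), a 95% interval of -0.59 to -0.28 and an adjusted p of 0.0133 by limma. The log2 fold change was -0.47 without NCb and siPrp19b (adjusted p = 0.220 by limma) and -0.19 with the groups as recorded (adjusted p = 1.00). The call was also lost without NCa, NCb, siPrp19b or siPrp19c, with an adjusted p of 0.0573, 0.0567, 0.0634 and 0.0733 by limma. With the 2 closest pairs averaged, the log2 fold change was -0.46 (adjusted p = 0.211 by limma). The FPKM of MYC was 2.12, 2.09 and 2.06 times that of MXI1 in NCa, NCb and NCc and 2.10, 2.00 and 2.30 times in siPrp19a, siPrp19b and siPrp19c, so that the ratio of these members overlapped between the groups.

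MXD3 (ENSG00000213347, chr5:177301461-177312757, minus strand), an MXD repressor linked to proliferating cells, had an FPKM of 3.47, 3.50 and 4.55 in NCa, NCb and NCc and of 2.14, 3.40 and 3.22 in siPrp19a, siPrp19b and siPrp19c. The groups did not overlap, but siPrp19b lay only just under NCa, and the log2 fold change of -0.31 ± 0.15 (SE) did not pass the test (95% interval -0.68 to 0.05, adjusted p = 0.278 by limma). Exons of RAB24 and PRELID1 overlapped 40.4% of the exon length of MXD3, so its value is uncertain. MXD4 (ENSG00000123933, chr4:2247432-2262294, minus strand), an MXD member expressed mainly in differentiated cells, was the most abundant of the repressors. It had an FPKM of 18.2, 17.8 and 17.5 in NCa, NCb and NCc against 16.3, 19.7 and 18.9 in siPrp19a, siPrp19b and siPrp19c, and its log2 fold change was 0.03 (95% interval -0.16 to 0.23, adjusted p = 0.851 by limma). Without NCb and siPrp19b it was -0.02, so MXD4 had no direction either.

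MXD1 (ENSG00000059728, chr2:69897688-69942945, plus strand), an MXD member induced in differentiating cells, had an FPKM of 1.73 to 2.74 in NC and of 2.53 to 2.71 in siPrp19. The siPrp19 values lay within the NC range, and the log2 fold change was 0.18 (95% interval -0.12 to 0.47, adjusted p = 0.452 by limma). MNT (ENSG00000070444, chr17:2384060-2401118, minus strand), a broadly expressed repressor, lay between 2.36 and 2.65 in NC and between 2.28 and 2.79 in siPrp19, and its log2 fold change was 0.04 (95% interval -0.18 to 0.26, adjusted p = 0.853 by limma). MGA (ENSG00000174197, chr15:41621224-41773081, plus strand) lay between 4.18 and 6.63 in NC and between 5.56 and 7.34 in siPrp19. Its log2 fold change was 0.14 (95% interval -0.25 to 0.53, adjusted p = 0.665 by limma), and it was -0.04 without NCc. NCc held the lowest value of MGA, whose exons span 17651 bp, and NCc was also the library that stood low for long genes. siPrp19a held the highest value, and it stood above siPrp19b and siPrp19c by a median of 0.12 for genes over 10000 bp. After a correction for exon length the log2 fold change of MGA was 0.14 (adjusted p = 0.395 by limma). The part of exon length in these values was not tested further.

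**Figure D2:**
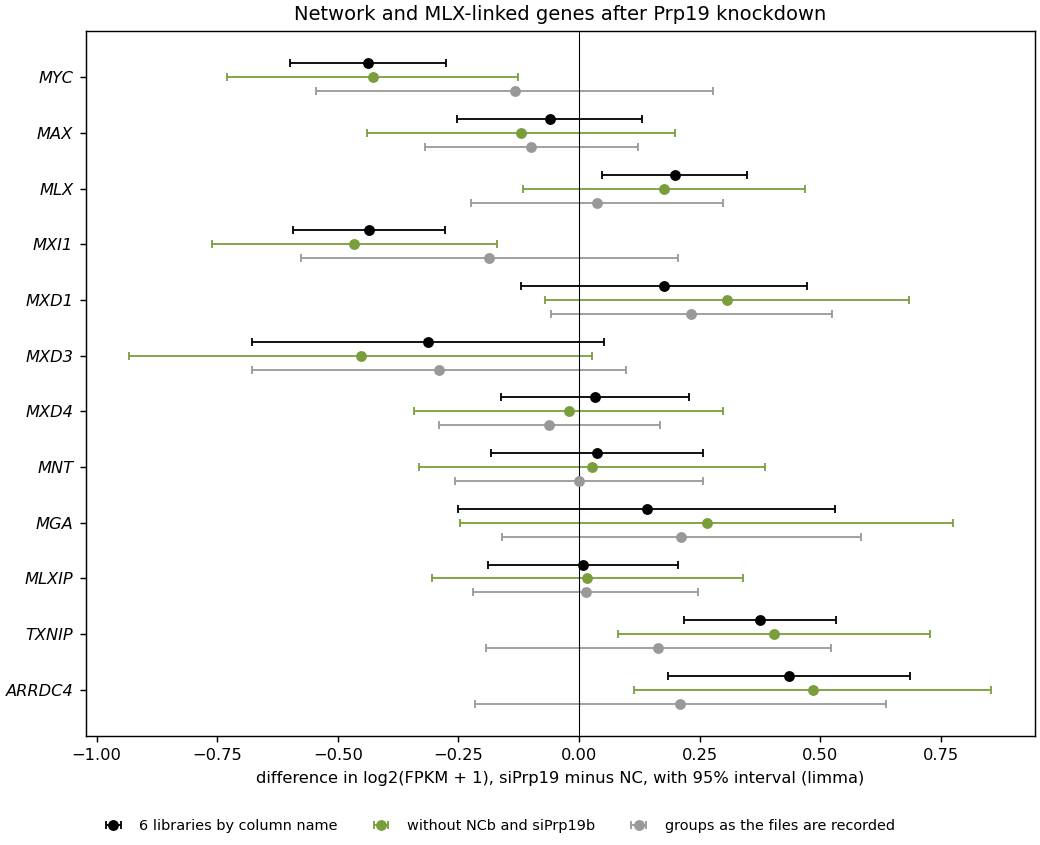
Difference in log2(FPKM + 1), siPrp19 minus NC (x axis), for 9 network members and 3 genes linked to MLX (y axis), with 95% intervals from limma. Black points use all 6 libraries by column name, green points leave out NCb and siPrp19b, and grey points use the groups under which the files are recorded. The unadjusted intervals of MYC, MXI1, TXNIP and ARRDC4 lie clear of 0 for the black and green points and cross it for the grey points, and for MLX the black interval alone is clear of 0.

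The balance of MYC family transcripts to those of the repressors was taken per library, as the summed FPKM of MYC, MYCN and MYCL over that of MNT, MXD1, MXD3, MXD4, MXI1 and MGA. This ratio was 0.451, 0.443 and 0.505 in NCa, NCb and NCc and 0.369, 0.328 and 0.374 in siPrp19a, siPrp19b and siPrp19c. It was lower in each siPrp19 library than in each NC library. On the log2 scale the mean was -1.10 ± 0.102 (SD, n = 3) in NC and -1.49 ± 0.102 in siPrp19, a difference of -0.39. A two-sided exact permutation test gave p = 0.1, the smallest that 3 libraries against 3 can give, so the design could not reach 0.05. The difference was -0.36 without NCb and siPrp19b, and -0.10 with the groups as recorded. The summed FPKM of the repressors was 40.0 to 42.2 in NC and 37.2 to 41.2 in siPrp19, which overlapped, and MXD4 held 42.1 to 47.9% of it. The family sum, in contrast, was 18.7 to 20.2 in NC and 13.5 to 14.7 in siPrp19.

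**Figure D3:**
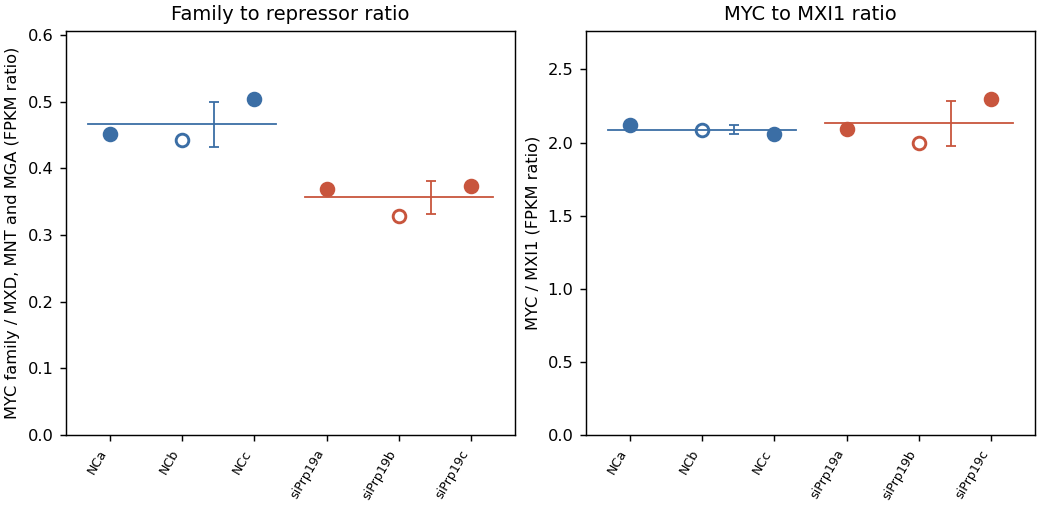
Ratio of the summed FPKM of MYC, MYCN and MYCL to that of the 6 repressors (left) and of the FPKM of MYC to that of MXI1 (right), per library, on linear axes from 0. Colours, open points, lines and bars (SD, n = 3) are as in the plot of expression by library. The left ratio is 0.443 to 0.505 in NC and 0.328 to 0.374 in siPrp19, whereas the right ratio overlaps between the groups.

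MLX (ENSG00000108788, chr17:42567068-42573239, plus strand) had an FPKM of 18.7, 19.3 and 19.2 in NCa, NCb and NCc. It was 21.1, 23.1 and 21.9 in siPrp19a, siPrp19b and siPrp19c. All siPrp19 libraries were above all NC libraries, and the mean was 15.5% higher. The log2 fold change of 0.20 ± 0.06 (SE, 95% interval 0.05 to 0.35) did not pass the test, with an adjusted p of 0.115 by limma. It passed after quantile normalization (adjusted p = 0.0391) and after a correction for exon length (adjusted p = 0.0440 by limma), and the adjusted p was 0.603 without NCb and siPrp19b. Quantile normalization and the length correction called 501 and 650 of the 13718 tested genes as higher, beside 353 in the main fit. Exons of PSMC3IP on the opposite strand overlapped 18.1% of the exon length of MLX, and the counting is not stated to use strand.

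Of the partners of MLX, MLXIP (ENSG00000175727) lay between an FPKM of 13.2 and 15.4 in all libraries, with overlapping groups and a log2 fold change of 0.01 (95% interval -0.19 to 0.21, adjusted p = 0.964 by limma), which changed sign without NCc. MLXIPL had at most 3 reads in any library. TXNIP (ENSG00000265972), which encodes a thioredoxin-binding arrestin that limits glucose uptake, rose. Its FPKM was 41.2, 43.8 and 42.9 in NCa, NCb and NCc and 57.8, 54.8 and 54.2 in siPrp19a, siPrp19b and siPrp19c, so the groups stood well apart. The mean was 30.4% higher, with a log2 fold change of 0.38 ± 0.07 (SE) and an adjusted p of 0.0205 by limma. The log2 fold change was 0.40 without NCb and siPrp19b (adjusted p = 0.315) and 0.16 with the groups as recorded (adjusted p = 1.00 by limma). Leaving out NCa, NCb, siPrp19b or siPrp19c ended the call, with an adjusted p of 0.111, 0.0803, 0.0936 and 0.0875 by limma, as did the replicate number as a block (adjusted p = 0.0520). ARRDC4 (ENSG00000140450), a related arrestin gene, had an FPKM of 6.41, 5.43 and 4.85 in NCa, NCb and NCc and of 7.99, 7.13 and 8.43 in siPrp19a, siPrp19b and siPrp19c. These groups did not overlap either, but the difference of 0.44 ± 0.11 (SE) on the log2 scale narrowly missed the threshold (adjusted p = 0.0537 by limma). It passed with voom, a limma model for counts, on the recovered reads (adjusted p = 0.0282), which called 10.0% of all tested genes, and after quantile normalization (adjusted p = 0.0400 by limma) or the exon length correction (adjusted p = 0.0488).

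The 250 bases before the annotated start are shown for MLX and its 2 known target genes, whose groups did not overlap, and for MXD4 and MNT, the other members that held an E-box there. The sequences are from RefSeq on GRCh38.p14, written 5′ to 3′ on the strand of the gene. Capitals mark CACGTG, the canonical E-box, or CACGAG, an E-box variant found in carbohydrate response elements, both searched on both strands. MLX is at chr17:42566850-42567099 (plus), TXNIP at chr1:145996580-145996829 (minus), ARRDC4 at chr15:97960453-97960702 (plus), MXD4 at chr4:2262110-2262359 (minus) and MNT at chr17:2401061-2401310 (minus).
MLX: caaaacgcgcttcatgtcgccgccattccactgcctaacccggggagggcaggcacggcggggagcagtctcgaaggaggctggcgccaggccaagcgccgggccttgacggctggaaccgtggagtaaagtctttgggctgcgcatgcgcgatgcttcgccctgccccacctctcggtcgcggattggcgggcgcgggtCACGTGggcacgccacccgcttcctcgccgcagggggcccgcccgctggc
TXNIP: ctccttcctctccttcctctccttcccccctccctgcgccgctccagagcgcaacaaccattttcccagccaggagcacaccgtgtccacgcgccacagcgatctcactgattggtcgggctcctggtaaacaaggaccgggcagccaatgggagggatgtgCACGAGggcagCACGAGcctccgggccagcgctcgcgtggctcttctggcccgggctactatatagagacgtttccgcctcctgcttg
ARRDC4: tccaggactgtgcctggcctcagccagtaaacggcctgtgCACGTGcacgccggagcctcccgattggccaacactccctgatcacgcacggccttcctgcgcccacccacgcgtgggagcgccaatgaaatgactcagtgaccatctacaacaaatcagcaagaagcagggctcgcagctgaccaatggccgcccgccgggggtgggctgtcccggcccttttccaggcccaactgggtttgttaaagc
MXD4: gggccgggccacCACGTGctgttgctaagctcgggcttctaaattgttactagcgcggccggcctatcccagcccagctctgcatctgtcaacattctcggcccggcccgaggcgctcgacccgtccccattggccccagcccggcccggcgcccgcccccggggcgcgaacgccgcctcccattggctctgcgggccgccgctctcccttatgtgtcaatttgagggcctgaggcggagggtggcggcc
MNT: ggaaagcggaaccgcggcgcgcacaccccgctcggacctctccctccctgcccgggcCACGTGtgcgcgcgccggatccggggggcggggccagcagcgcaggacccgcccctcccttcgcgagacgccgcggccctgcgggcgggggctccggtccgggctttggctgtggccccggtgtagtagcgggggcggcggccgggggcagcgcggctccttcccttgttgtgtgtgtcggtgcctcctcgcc
Counted from the annotated start, the E-box began at -50 in MLX, -210 in ARRDC4, -238 in MXD4 and -193 in MNT, and CACGAG began at -88 and -77 in TXNIP. Another window of TXNIP, at chr1:145995745-145995994 (minus), held neither motif and is not shown. Over all 35116 promoter windows of this length, 6.35% held CACGTG and 5.58% held CACGAG or its reverse complement CTCGTG. Of the 10 members, 9 matched at least 1 window, with 14 windows in all, and no window of MXI1 held either motif. MYC had no match. A match describes these letters only, and no binding was measured.

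Factors that set the amount or stability of the MYC protein included 4 of 12 tested genes that were called lower, beside 5.37% of all tested genes, none that was called higher and 8 that did not pass the test. SKP2, a ubiquitin ligase subunit that targets MYC and the cell cycle inhibitor p27, fell from an FPKM of 39.1 ± 2.09 to 22.4 ± 1.81 (SD, n = 3), a log2 fold change of -0.78 ± 0.08 (SE, adjusted p = 0.00463 by limma). CIP2A, an inhibitor of the phosphatase PP2A that keeps MYC stable, fell from 16.1 ± 1.63 to 10.0 ± 1.32 (log2 fold change -0.63, adjusted p = 0.0200 by limma). AURKA and PLK1, mitotic kinases that also protect MYC family proteins from degradation, fell with log2 fold changes of -0.42 (adjusted p = 0.0152) and -0.40 (adjusted p = 0.0240 by limma). SKP2 kept its call when any single library was left out. FBXW7, the ligase subunit that marks MYC for degradation, did not pass the test. The median log2 fold change of the 12 genes was -0.05, beside -0.02 over all tested genes.

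None of 13 coactivators and partners of MYC, among them WDR5 and TRRAP, was called by limma or by voom. An unadjusted p under 0.05 by limma was found for 3 of them, beside 3240 of the 13718 tested genes. The median log2 fold change of the 13 genes was -0.07. Of 9 genes of the corepressor used by MXD proteins and MNT, RBBP4, a histone-binding subunit, fell from an FPKM of 24.1 ± 0.365 to 19.2 ± 0.866 (SD, n = 3), a log2 fold change of -0.31 (adjusted p = 0.0309 by limma), and the other 8 did not pass. The call of RBBP4 was lost after quantile normalization (adjusted p = 0.0809), rescaling to the same sum (0.159) and the exon length correction (0.0581 by limma). Of 9 partners of MGA in its Polycomb complex, CBX3 alone was called. In the corepressor and MGA partner lists alike, 1 of 9 was called, beside 7.94% of all tested genes. CBX3, the heterochromatin protein HP1 gamma, had an FPKM of 76.3, 76.3 and 87.1 in NCa, NCb and NCc and of 35.4, 35.7 and 36.9 in siPrp19a, siPrp19b and siPrp19c. It fell by 55.0%, with a log2 fold change of -1.13 ± 0.08 (SE) and an adjusted p of 0.00182 by limma, and kept its call when any single library was left out. Without NCb and siPrp19b its adjusted p was 0.0819.

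Of 58 genes known to be activated by MYC, 56 were tested, of which 6 were called lower, none higher, and 50 did not pass. The share of 5.37% called lower over all tested genes is given above. DDX18, an RNA helicase of ribosome assembly, fell from an FPKM of 28.4 ± 0.917 to 19.7 ± 0.294 (SD, n = 3), a log2 fold change of -0.51 ± 0.06 (SE, adjusted p = 0.00683 by limma). NOLC1, a nucleolar chaperone, fell from 73.3 ± 1.11 to 55.3 ± 0.694 (log2 fold change -0.40, adjusted p = 0.0146 by limma). RCC1, the exchange factor for the GTPase RAN, fell from 29.4 ± 1.47 to 20.4 ± 1.75 (log2 fold change -0.51, adjusted p = 0.0152 by limma). TFAM, which packages and transcribes mitochondrial DNA, fell from 13.5 ± 0.431 to 10.7 ± 0.216 (log2 fold change -0.31, adjusted p = 0.0283 by limma). Over the 56 genes, 46 fold changes were below 0 and 10 above, beside 7411 and 6307 of the 13718 tested genes. The median was -0.13, beside -0.02 over all tested genes. The groups did not overlap for 22 genes lower and 4 higher in siPrp19, beside 18.1% and 13.2% of all tested genes. After quantile normalization the list median was -0.02 and that of all genes was 0.01. Without NCb and siPrp19b it was -0.17, with 46 genes lower and none called, and with the groups as recorded it was -0.06. CCND2, a MYC target of the cell cycle, had no read in any library.

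Of 7 genes known to be repressed by MYC, 6 were tested, with 1 called in each direction. Over all tested genes, 5.37% were called lower and 2.57% higher. CDKN1A, the inhibitor p21 of cyclin-dependent kinases, rose. It had an FPKM of 15.1, 14.9 and 16.0 in NCa, NCb and NCc and of 20.5, 24.6 and 28.0 in siPrp19a, siPrp19b and siPrp19c, a log2 fold change of 0.62 ± 0.11 (SE, adjusted p = 0.0216 by limma). CDKN2B, the inhibitor p15 of CDK4 and CDK6, fell from 2.19 ± 0.0989 to 1.24 ± 0.106 (SD, n = 3), with a difference in log2(FPKM + 1) of -0.51 (adjusted p = 0.0209 by limma). At this low level the added 1 shrinks the difference, and voom on the recovered reads gave a log2 fold change of -0.80. CDKN1B, the inhibitor p27, had a log2 fold change of -0.17 and did not pass the test (adjusted p = 0.208 by limma). Like RBBP4, PLK1, NOLC1 and TFAM lost the call after quantile normalization (adjusted p = 0.0556, 0.0892 and 0.0609 by limma). Rescaling to the same sum ended these calls (0.0535, 0.0595 and 0.149) and that of CDKN2B (0.0584 by limma). With no filter, CIP2A, PLK1, CDKN1A and CDKN2B lost it (0.0659, 0.0564, 0.0695 and 0.0667 by limma). No called gene named from these lists passed with the closest pairs averaged. Without NCb and siPrp19b, none of the genes named from these lists passed with limma, whereas SKP2 (adjusted p = 0.0229) and CBX3 (adjusted p = 0.00307) passed with voom, a limma model that called 2.25% of all tested genes there. Except for SKP2, CBX3 and DDX18, each of the called genes named from these lists lost its call without NCa, without NCb and without siPrp19b, and each of these except RCC1 also without siPrp19c, with an adjusted p of 0.0605 to 0.137 by limma.

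**Figure D4:**
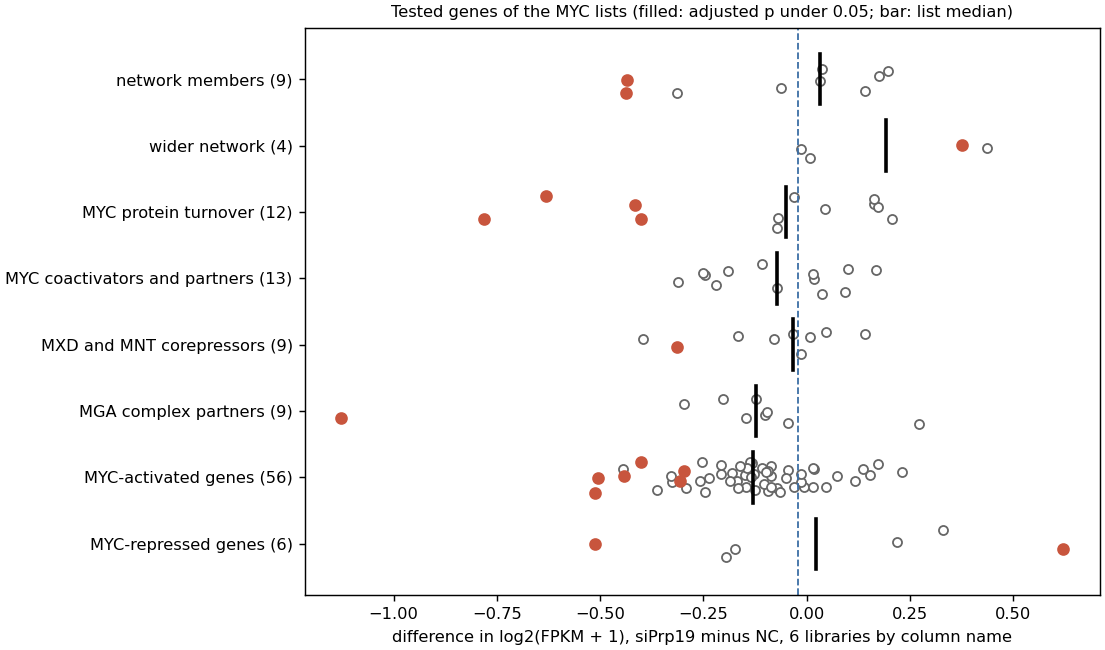
Difference in log2(FPKM + 1), siPrp19 minus NC (x axis), of each tested gene in 8 lists (y axis, number tested in brackets), from 6 libraries by column name. Filled points passed the adjusted p threshold, black bars are list medians and the dashed line is the median of all tested genes. The called points of the MYC-activated list lie between -0.51 and -0.30, while most of its points lie within 0.3 of 0.

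The genes whose level followed that of MYC most closely over the 6 libraries were OIP5-AS1, a long noncoding RNA (Pearson r of log2(FPKM + 1) of 0.998), AGGF1, which encodes an angiogenic factor with a G patch domain (0.997), and ZCCHC9, which encodes a zinc knuckle protein (0.996). As 22 tested genes reached an r of 0.99 with MYC, the order among them carries little weight. For MAX these were PGD, an enzyme of the pentose phosphate pathway (0.997), COPS9, a COP9 signalosome subunit (0.993), and ZNF768, a zinc finger gene (0.992). These correlations rest on 6 points that share their libraries and the split into groups, and are given as a description.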

How the data were processed

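Total RNA (TRIzol) was made into NEBNext Ultra libraries. The authors deposited 1 table per library of FPKM values for 58735 Ensembl genes. The submitters' processing notes name HISAT2 2.0.5, featureCounts 1.5.0-p3 and hg38, with no role or strand setting. FPKM is scaled to each library, so a change in total RNA per cell is not visible. All identifiers matched GENCODE 29 (GRCh38), whose exon lengths turned 100% of values into whole reads within 0.05 read.

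Genes at a mean FPKM of 1 or more were tested on log2(FPKM + 1), a scale that understates changes of weak genes, with limma 3.58.1 in R 4.3.3 (mean-variance trend, Benjamini-Hochberg adjustment). Plots and sums used Python 3.11.15. The procedure was tested on simulated independent libraries. These lacked the close pairs and the shift by exon length of the real libraries, so the simulation does not test the calls reported here. The members and the gene lists were chosen with earlier results of these data known. Named were all members, PRPF19, MYCL, MLXIP and MLXIPL, up to 4 called genes with the smallest adjusted p per list, listed genes with hardly any reads, and the 3 tested genes most correlated with MYC and MAX. PVT1, MYCNOS, ARRDC4, CDKN1B, FBXW7, WDR5 and TRRAP were named after their values were seen. Alternatives were a pseudocount of 0.1, no filter, quantile normalization, rescaling to the same sum, no trend, voom on recovered reads, the replicate block, each library left out, and the fits without NCb and siPrp19b or with the groups as recorded. Voom without NCb and siPrp19b, averages of the closest pairs (NCa with NCb, siPrp19b with siPrp19c) and a spline correction for exon length (4 degrees of freedom) were added after the data were seen.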

Additional observations from a re-analysis of the deposited data

How the results depend on the processing

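Of 515 recomputed values, 347 stayed on the same side of 0 and of the threshold or close to the reported value, 124 kept their direction but no longer passed, 5 newly passed, 27 counts moved by over 1.5 times and 12 changed sign. The number of genes called (1089) became 512 with no filter on low values, 679 after rescaling to the same FPKM sum, 309 with voom without NCb and siPrp19b, 2 without these libraries in limma (1685 at an unadjusted p under 0.05), 2 with the closest pairs averaged (1699) and 0 with the groups as recorded (191). Leaving out NCc gave 1354 calls and leaving out siPrp19a gave 1033. Leaving out NCa, NCb, siPrp19b or siPrp19c, each part of a closest pair, gave 264, 335, 270 and 253. Calls among the 9 tested members (2) became 0 in each of these settings that leave out, average or regroup libraries, 0 to 2 with 1 library left out, and 3, with MLX, after quantile normalization or the exon length correction. Calls among MYC-activated genes (6) became 2 after rescaling, 0 in the same 4 settings, and 1 to 7 with 1 library left out. Over all 13718 tested genes, quantile normalization called 1087 and the exon length correction 1481. Of these, 501 and 650 were higher in siPrp19, beside 353 in the main fit. All fits with 1 library left out had the same number of libraries, fewer than the main fit, and the cause of the change in calls was not tested. The higher share of calls was 32.4% and became 46.1% after quantile normalization, which moved the median of all genes from -0.02 to 0.01.

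The log2 fold changes that changed sign were all of members or partners that did not pass the test. MAX became 0.0119 after quantile normalization and ranged from -0.11 to 0.0078 with 1 library left out. MNT became -0.00011 with the groups as recorded and ranged from -7.5e-05 to 0.10. MXD4 became -0.0616 as recorded, -0.0105 with voom and -0.0215 with limma without NCb and siPrp19b, and ranged from -0.0196 to 0.11. MGA ranged from -0.0360 to 0.24 and MLXIP from -0.0581 to 0.0520. The ratio of MYC family to repressor transcripts kept its direction throughout, with a difference of -0.42 to -0.33 with 1 library left out.

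With the replicate number as a block, 928 genes were called, the called members were 2, and 4 MYC-activated genes passed. The block ended the calls of TXNIP (adjusted p = 0.0520 by limma), RBBP4 (0.0655), TFAM (0.0638) and CDKN2B (0.0531), and of none of the other called genes named from the network and pathway lists. For the ratio, the mean difference within the numbers was -0.39, which equals the difference of the group means by arithmetic and so does not check the pairing. A sign-flip permutation test of the 3 differences gave p = 0.25, and 3 pairs cannot reach 0.05. The deviations of same-numbered libraries correlated at 0.13, -0.05 and 0.20, and those of other combinations at -0.20 to 0.13. NCa, NCc, siPrp19a and siPrp19c correlated best with their own number, whereas NCb and siPrp19b did not. So few libraries cannot settle whether the numbers pair the samples.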
